A study of Mus musculus with 79 samples.

Results

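The genes described here are 10 cartilage genes measured in the vertebrae of mice, namely Col2a1, Acan, Col9a1, Col10a1, Sox9, Matn1, Comp, Chad, Prg4 and Cnmd. They were taken as a list of cartilage matrix and chondrocyte genes and matched by symbol. All 10 were in the deposited tables, which held 39063 features with a numeric gene ID, and all 10 were among the 14873 genes tested. A gene was tested where its mean over the 79 libraries was at least 0.4 TPM (a length-adjusted transcript level relative to the library total). RNA was sequenced from caudal vertebrae (CV, the tail bones, 51 libraries) and lumbar vertebrae (LV, the lower spine, 18 libraries). Inguinal white adipose tissue (iWAT, subcutaneous fat of the groin, 10 libraries) served as background. The study asked how an infusion of leptin, a hormone that fat cells secrete, changes fat depots, including the adipocytes of bone marrow, when it is delivered into the brain.

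WT mice carried intact Pnpla2, the gene of the lipase ATGL, and were labelled BMAd-Pnpla2+/+. The conditional knockouts (cKO, BMAd-Pnpla2-/-) lacked Pnpla2 in bone marrow adipocytes, and the Cre driver was not given in the sources used here. By their labels all mice were adults of 4 to 5 months. The study's figure legends give 4 to 6 months for the sequenced mice and 5 to 6 months for the insulin pellet experiment. All mice were on a mixed SJL and C57BL6 background, pair-fed and housed singly. Each received an intracerebroventricular (ICV) infusion for 9 days, either of PBS or of leptin at 100 ng per hour. In CV the groups without insulin were female WT (5 PBS, 5 leptin), female cKO (4 PBS, 4 leptin), male WT (5 PBS, 8 leptin) and male cKO (5 PBS, 4 leptin). A further 5 male WT mice had PBS with a subcutaneous insulin supplement and 6 had leptin with it. LV came from the same 18 females, 5 PBS and 5 leptin in WT, 4 PBS and 4 leptin in cKO. iWAT came from the 10 female WT mice. Each library was 1 mouse and 1 tissue. The insulin mice had mouse numbers in the 300s and 400s, which no other group had, so insulin and that number series cannot be told apart.

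Cartilage is made by chondrocytes, which surround themselves with a network of type II collagen filled with the proteoglycan aggrecan. In vertebrae it is found in the end plates that face the intervertebral discs, in the discs themselves, in the facet joints and, in mice, in growth plates that persist into adult life. Growth plate chondrocytes pass from a resting through a dividing to a hypertrophic state, and each state has matrix genes of its own. In bulk tissue, fewer chondrocytes and less RNA per chondrocyte cannot be told apart.

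All 10 genes are protein coding in the RefSeq annotation of GRCm38.p6, which gives the positions here. Of the collagens, Col2a1 (gene ID 12824), the chain of type II collagen, lies at chr15:97975602-98004724. Col9a1 (12839), a chain of type IX collagen on the surface of type II fibrils, lies at chr1:24177589-24252738. Col10a1 (12813), the collagen of hypertrophic chondrocytes, lies at chr10:34389981-34397085. Of the genes for other matrix proteins, Acan (11595), the aggrecan core protein, lies at chr7:79053226-79115099 and Matn1 (17180), matrilin 1, a filament-forming adaptor, at chr4:130944385-130955476. Comp (12845), cartilage oligomeric matrix protein, also made in tendon and ligament, lies at chr8:70373548-70382066. Chad (12643), chondroadherin, a leucine-rich protein that binds collagen and cells, lies at chr11:94565047-94569127. Prg4 (96875), lubricin, the lubricant of joint surfaces, lies at chr1:150449412-150466221. Cnmd (16840), chondromodulin, a membrane protein known for restraining vessel growth in cartilage, lies at chr14:79637682-79662194. Sox9 (20682), the transcription factor that chondrocytes depend on, lies at chr11:112782210-112787757.

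The RefSeq promoter table of GRCm38.p6 held 6 of the 10 genes. The upstream sequences of 3 genes are shown because Col9a1 and Matn1 were called lower with leptin in CV and Col10a1 was among those that differed most between the vertebral sites in WT mice. Each is the 250 bases before a start site on the plus strand, 5′ to 3′, in lower case. Capitals mark a match on either strand to ACAAAG or ACAATG, core letters that SOX factors are known to bind, or to TATAAA, the letters of a TATA box. The stretches are chr1:24177360-24177609 for Col9a1, chr4:130944135-130944384 for Matn1 and chr10:34389731-34389980 for Col10a1.
Col9a1: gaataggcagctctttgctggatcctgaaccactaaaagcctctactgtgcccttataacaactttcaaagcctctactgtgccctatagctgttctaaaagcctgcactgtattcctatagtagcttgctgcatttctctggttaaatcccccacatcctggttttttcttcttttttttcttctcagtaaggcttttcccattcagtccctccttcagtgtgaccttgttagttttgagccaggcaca
Matn1: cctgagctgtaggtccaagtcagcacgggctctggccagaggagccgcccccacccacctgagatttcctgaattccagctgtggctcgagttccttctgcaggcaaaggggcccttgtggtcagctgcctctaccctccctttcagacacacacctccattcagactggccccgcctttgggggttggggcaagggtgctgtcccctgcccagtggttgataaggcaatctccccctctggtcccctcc
Col10a1: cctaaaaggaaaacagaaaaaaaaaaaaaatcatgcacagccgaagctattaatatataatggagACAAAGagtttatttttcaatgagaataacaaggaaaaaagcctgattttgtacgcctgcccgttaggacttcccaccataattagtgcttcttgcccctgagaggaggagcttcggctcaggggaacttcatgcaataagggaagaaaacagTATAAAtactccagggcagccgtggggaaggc
The Col10a1 stretch held 1 match to ACAAAG and 1 to TATAAA, and those of Col9a1 and Matn1 held none. A second Col9a1 start site had no match either, and the Chad promoter held 1 TATAAA. Such letters are common. Of 32851 promoters of this length, 16.46% held ACAAAG on one strand or the other. The other SOX core was held by 10.69%, either core by 25.24% and the TATA box letters by 12.37%. The letters differed in composition, with 43.6% G and C in the Col9a1 stretch, 62.0% in Matn1 and 41.6% in Col10a1.

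Summed counts per library ran from 16100377 to 19364106 in CV, from 28717516 to 29757254 in LV and from 17638318 to 19100698 in iWAT. The targeted gene, Pnpla2, had a median of 261 TPM in the 23 CV libraries of WT mice without insulin (191 to 405) and of 176.1 TPM in the 17 of cKO mice (131 to 266). In LV it had a median of 22.9 TPM in WT and 24.4 TPM in cKO, with ranges that overlapped. Of the 51 CV libraries, 2 stood apart in T (brachyury), a marker of the notochord-derived disc nucleus. T was 0.02 TPM in replicate 3 of female cKO with PBS and 0.04 TPM in replicate 3 of male cKO with PBS, against 20.5 to 101 TPM in the other 49. Krt8 was at 0.18 and 1.04 TPM in these libraries (22.7 to 146 TPM in the others) and Krt19 at 4.51 and 1.76 TPM (35.8 to 193 TPM). Every comparison that held these libraries was therefore fitted again without them, a choice made after seeing the data.

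The cartilage genes were abundant in CV, lower in LV and at or near 0 in fat. Together they took 0.151% to 0.470% of the summed TPM in CV (median 0.267%), 0.0262% to 0.0761% in LV and 0.001% to 0.0022% in iWAT. Since TPM values are per length, levels can be compared between genes. In CV the order by median was Chad (829 TPM), Comp (619 TPM), Prg4 (336.6 TPM), Cnmd (289 TPM), Col2a1 (257 TPM), Acan (132 TPM), Col10a1 (94.7 TPM), Col9a1 (21.4 TPM), Sox9 (11.7 TPM) and Matn1 (1.17 TPM). Neighbours in that order had overlapping ranges over the 51 libraries, except Sox9 and Matn1. Chad ran from 482 to 1431 TPM and Comp from 309 to 994 TPM. Matn1 sat far below the rest, between 0.30 and 2.92 TPM, on 7 to 58 counts a library, the fewest of the 10.

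In LV the order changed in the upper ranks. Chad again led (median 148 TPM), followed by Col2a1 (78.1 TPM), Comp (73.2 TPM), Cnmd (63.4 TPM) and Acan (23.8 TPM). Prg4, the joint lubricant, was at 4.87 to 16.8 TPM in LV against 147 to 669.7 TPM in CV, with no overlap. Col10a1 spanned 1.12 to 46.4 TPM in LV, the widest ratio of highest to lowest among the 10 there. Col9a1 (1.13 to 28.9 TPM), Sox9 (1.56 to 4.01 TPM) and Matn1 (0.18 to 1.12 TPM, 10 to 64 counts) were low.

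In iWAT the members that mark cartilage most strictly were absent or nearly so. Acan was between 0 and 0.01 TPM, Col10a1 between 0 and 0.03, Col2a1 between 0 and 0.08 and Matn1 between 0 and 0.09 TPM over the 10 libraries. Sox9 was the exception. At 3.70 to 9.81 TPM (median 6.83 TPM) in iWAT, it was above its LV median of 2.35 TPM, and its ranges in fat and CV overlapped. Prg4 (1.21 to 6.21 TPM), Comp (1.01 to 3.22 TPM), Cnmd (0.29 to 1.97 TPM), Col9a1 (0.40 to 1.73 TPM) and Chad (0.12 to 0.55 TPM) were low in fat but measurable.

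**Figure D1:**
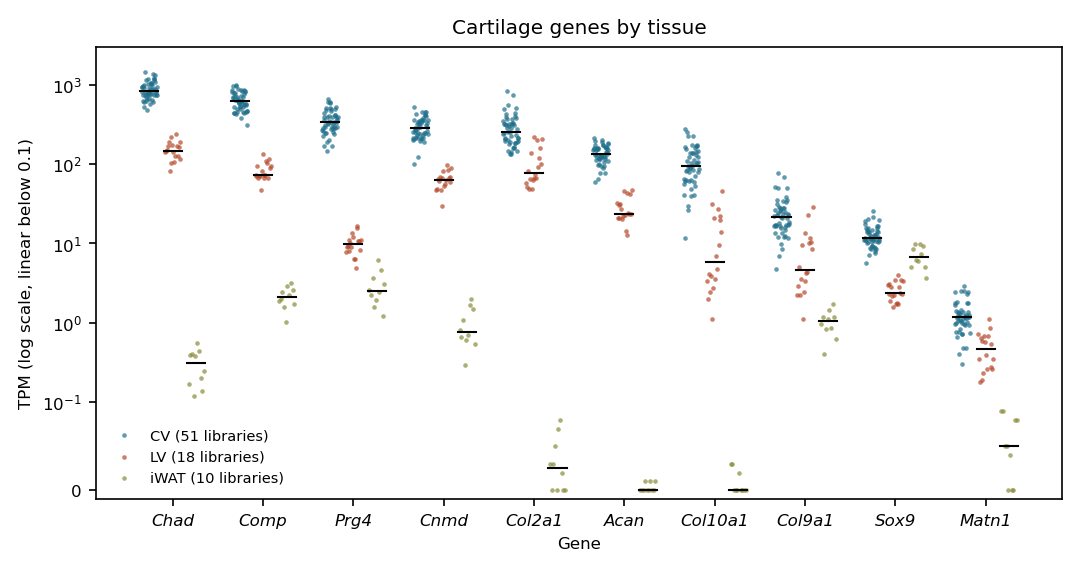
TPM of the 10 cartilage genes (vertical axis, linear below 0.1 TPM and logarithmic above) in each library of CV (51), LV (18) and iWAT (10), with black lines at the medians. Chad and Comp are highest in CV with medians of 829 and 619 TPM, Matn1 is lowest at 1.17 TPM, and Sox9 is the 1 gene whose iWAT median is above that of LV.

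The first comparison asked how the vertebral sites differ, using the CV and LV libraries of the same 18 females. In WT mice with PBS, Prg4 was at 274, 260.1, 225, 287 and 391 TPM in CV and at 7.80, 8.94, 9.31, 8.13 and 10.96 TPM in LV. Col10a1 was at 65.4, 55.7, 41.3, 277 and 163.3 TPM in CV and at 3.33, 2.01, 4.18, 2.43 and 3.88 TPM in LV. Neither gene overlapped between the sites. Comp, at 676 to 959 TPM in CV and 66.1 to 94.8 TPM in LV, did not overlap either. How many of all tested genes were free of overlap was not counted, in this or any later comparison. Here and below, a gene is called where its edgeR quasi-likelihood test has a Benjamini-Hochberg adjusted p under 0.05 over all tested genes and its log2 fold change is at least 0.5 in size. In this group 9 of the 10 members were called higher in CV. Of all tested genes 66.3% were called, 5114 higher and 4753 lower, so a call as such is common here. The log2 fold changes, CV minus LV, were 4.11 (SE 0.77) for Col10a1, 4.06 (SE 0.34) for Prg4 and 2.32 (SE 0.19) for Comp. Those of Col9a1 (1.92), Acan (1.58), Col2a1 (1.33), Chad (1.32), Sox9 (1.32) and Cnmd (1.27) were smaller. Matn1 differed by 0.60 with an edgeR adjusted p of 0.135.

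Averaged over the 4 female groups, 8 of 10 were called higher in CV. Of all tested genes 66.0% were called, 5164 higher and 4655 lower. The members' median log2 fold change was 1.23, beside 0.0081 for all tested genes. Prg4 (3.98, SE 0.18), Col10a1 (2.19, SE 0.37), Comp (1.89, SE 0.097), Chad (1.25), Sox9 (1.24), Acan (1.22), Cnmd (0.90) and Col2a1 (0.62) passed. Col9a1 did not, with 0.60 and an edgeR adjusted p of 0.0529, but it passed with the mouse as a block (0.65, adjusted p 0.017) and by DESeq2 (0.62, adjusted p 0.0487). Matn1 had 0.14 with an edgeR adjusted p of 0.513. On log2(TPM + 1) values without further scaling, limma called all 10 higher, Matn1 by 0.54, and there the median of all tested genes was itself 0.87 higher in CV.

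Within single mice the ratio of TPM in CV to that in LV was highest for Prg4. It had a median of 30.3 (13.6 to 50.3) and was above 1 in 18 of 18 mice. Comp had a median ratio of 9.53 (3.85 to 12.4) and Chad of 5.23 (3.47 to 7.71), again above 1 in all 18. Matn1 was above 1 in 18 of 18 as well, with a median of 2.63. These ratios are without further scaling, and the median over all tested genes was itself 0.87 higher in CV on log2(TPM + 1). Col10a1 had the widest spread, with a median of 10.3 between 1.33 and 114. The collagens Col2a1 (median 4.12) and Col9a1 (median 4.51) were higher in CV in 16 of 18 mice, and their lowest ratios were 0.966 and 0.627. By group, the median ratio of Col10a1 was 27.7 in WT mice with PBS, 10.5 in WT with leptin, 13.0 in cKO with PBS and 1.93 in cKO with leptin. In the same order of groups, the medians were 7.56, 4.19, 5.28 and 0.915 for Col9a1 and 4.96, 4.08, 4.97 and 1.96 for Col2a1. These medians were not tested against each other.

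Other cartilage genes also differed by site in the average over the 4 female groups, where 66.0% of all tested genes were called. Of 22 further matrix genes, 14 were called higher in CV and 3 lower, with a median of 0.85. The higher ones with the largest change were Cilp (3.499) and Cilp2 (3.08), both cartilage intermediate layer proteins, Fmod (3.36), the collagen-binding fibromodulin, and Matn4 (2.79), a matrilin. Chil1 (-3.19), a chitinase-like protein that neutrophils also make, Otos (-1.66) and Mia (-0.81) were called lower. Of 25 regulators and enzymes, 19 were called higher and 1 lower. Bmpr1b (4.17), a BMP receptor, Mmp3 (3.87), a matrix protease, Xylt1 (2.30), which starts proteoglycan chains, and Gdf5 (2.03), a joint-forming growth factor, led the higher ones, and Sox6 (-1.35), a partner of Sox9 that erythroid cells use as well, was the lower one.

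The dissected sites held different tissues beside cartilage, and the counts of markers again stand beside 66.0% of all tested genes. All 8 tendon markers, 7 of 8 muscle markers and 7 of 7 adipocyte markers were called higher in CV, as were 6 of 7 synovium markers, a list that includes Prg4 itself. All 7 erythroid and all 7 neutrophil markers were called lower in CV. The 8 muscle markers summed to 17199 to 47174 TPM in CV of the females and to 976 to 3604 TPM in LV, and the tendon markers to 1463 to 10490 and 292 to 1405 TPM. The adipocyte markers summed to 5032 to 12165 TPM in CV and 213 to 525 TPM in LV. Erythroid markers summed to 1836 to 44517 TPM in CV against 160600 to 328550 TPM in LV, and neutrophil markers to 949 to 11448 against 126070 to 254430 TPM. The part of these tissues in the site difference of the cartilage genes was not tested.

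The second comparison asked what leptin did to the cartilage genes in CV. Col2a1, Col9a1 and Matn1 were called lower with leptin in the average over both sexes and genotypes, and none of the 10 was called higher. Matn1 kept its call without the libraries that lacked the disc marker T, while Col2a1 and Col9a1 did not.

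In female WT mice Col2a1 was at 347, 239, 251, 498 and 319.7 TPM with PBS and at 209.8, 198, 316, 212 and 309.8 TPM with leptin. In female cKO mice it was at 431, 392, 825 and 374.4 TPM with PBS and at 288, 552, 148 and 202 TPM with leptin. The groups overlapped in both genotypes, and the value of 825 TPM, the highest in CV, came from 1 of the libraries without T. In male WT mice it was at 257, 181, 319, 299 and 253 TPM with PBS, and with leptin the 8 libraries ran from 134 to 369.5 TPM with a median of 210.5 TPM. In male cKO mice it was at 324, 744, 327, 161.3 and 161.3 TPM with PBS and at 307, 164, 183.1 and 185.3 TPM with leptin. The groups of males overlapped as well, and the highest male library, 744 TPM, was a cKO mouse with PBS.

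Col9a1, whose product coats type II fibrils, was at 22.3, 16.8, 13.5, 51.1 and 26.7 TPM with PBS and at 17.0, 4.74, 16.7, 17.1 and 23.1 TPM with leptin in female WT mice. In female cKO mice it was at 35.2, 31.2, 77.7 and 24.2 TPM with PBS and at 11.9, 50.7, 7.03 and 18.1 TPM with leptin. The same 2 female cKO libraries, replicate 3 with PBS and replicate 2 with leptin, were highest in their groups for both collagens. In male WT mice Col9a1 was at 28.6, 16.6, 27.6, 25.3 and 21.4 TPM with PBS and between 8.60 and 33.9 TPM with leptin (median 18.3 TPM). In male cKO mice it was at 28.2, 68.6, 27.95, 12.2 and 12.4 TPM with PBS and at 24.6, 14.9, 16.1 and 17.1 TPM with leptin. No stratum was free of overlap.

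Matn1 was at 2.48, 0.97, 1.80, 1.67 and 1.42 TPM with PBS and at 0.77, 0.99, 1.85, 0.67 and 1.16 TPM with leptin in female WT mice. In female cKO mice it was at 1.26, 1.05, 1.36 and 1.17 TPM with PBS and at 0.76, 1.32, 0.40 and 0.83 TPM with leptin. At these low levels 3 of 5 leptin libraries of WT and 1 of 4 of cKO lay within the range of their PBS group, and the others lay below it. In male WT mice Matn1 was at 1.08, 1.28, 2.51, 1.04 and 1.47 TPM with PBS and between 0.30 and 1.38 TPM with leptin (median 0.85 TPM). In male cKO mice it was at 2.92, 2.55, 1.17, 1.22 and 0.94 TPM with PBS and at 1.20, 0.48, 1.16 and 1.26 TPM with leptin.

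Averaged over the 4 strata of sex and genotype (19 PBS and 21 leptin libraries), 3 of 10 members were called, all lower, where 5.39% of all tested genes were called. Col9a1 fell by 0.70 on the log2 scale (SE 0.23, edgeR adjusted p 0.0196), Matn1 fell by 0.67 (SE 0.17, adjusted p 0.00378) and Col2a1 fell by 0.50 (SE 0.16, adjusted p 0.0199). DESeq2 also called 3. Comp, at -0.47 (SE 0.078), had the smallest adjusted p of the members (3.1e-05) and Chad was at -0.28 (SE 0.091, adjusted p 0.0222), but both were under the fold threshold. Cnmd (-0.34, adjusted p 0.0527), Col10a1 (-0.34, adjusted p 0.381), Acan (-0.15), Prg4 (-0.08) and Sox9 (-0.02) did not pass. The members' median was -0.34 beside 0.0031 for all tested genes.

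Some of these calls rested on single libraries. Without the pair that lacked T, edgeR called 1 member, Matn1 (-0.69, adjusted p 0.00645), while Col2a1 was at -0.42 (adjusted p 0.0622), Col9a1 at -0.59 (adjusted p 0.0632) and Chad at -0.22 (adjusted p 0.0800). Comp kept its value (-0.46, adjusted p 1.4e-04). With single libraries left out, Matn1 was called in 40 of 40 fits and Col9a1 in 39 of 40, the exception being replicate 3 of female cKO with PBS. Col2a1, which sat at the fold threshold, was called in 20 of 40 fits, at -0.60 to -0.40. The smallest change came without replicate 2 of male cKO with PBS.

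The mice carried numbers in several series, which may mark cohorts, although the labels do not say so. Within the 8 combinations of stratum and number series that held both treatments, the leptin mean was the lower one in 8 of 8 for Col2a1, Col9a1, Matn1, Comp and Cnmd. The differences ran from -2.02 to -0.08 for Col2a1, from -2.04 to -0.07 for Col9a1 and from -0.76 to -0.23 for Matn1 on the log2(TPM + 1) scale. Those of Comp ran from -1.13 to -0.10. The largest difference of both collagens was that of female cKO mice numbered in the 5000s, where 1 leptin library stood against 1 PBS library, the one without T. In the other combinations the differences reached -0.67 for Col2a1 and -0.96 for Col9a1. Of the 8 combinations, 3 held a single leptin library. Acan was lower in 7 of 8, Chad and Col10a1 in 6, and Prg4 and Sox9 in 5.

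**Figure D2:**
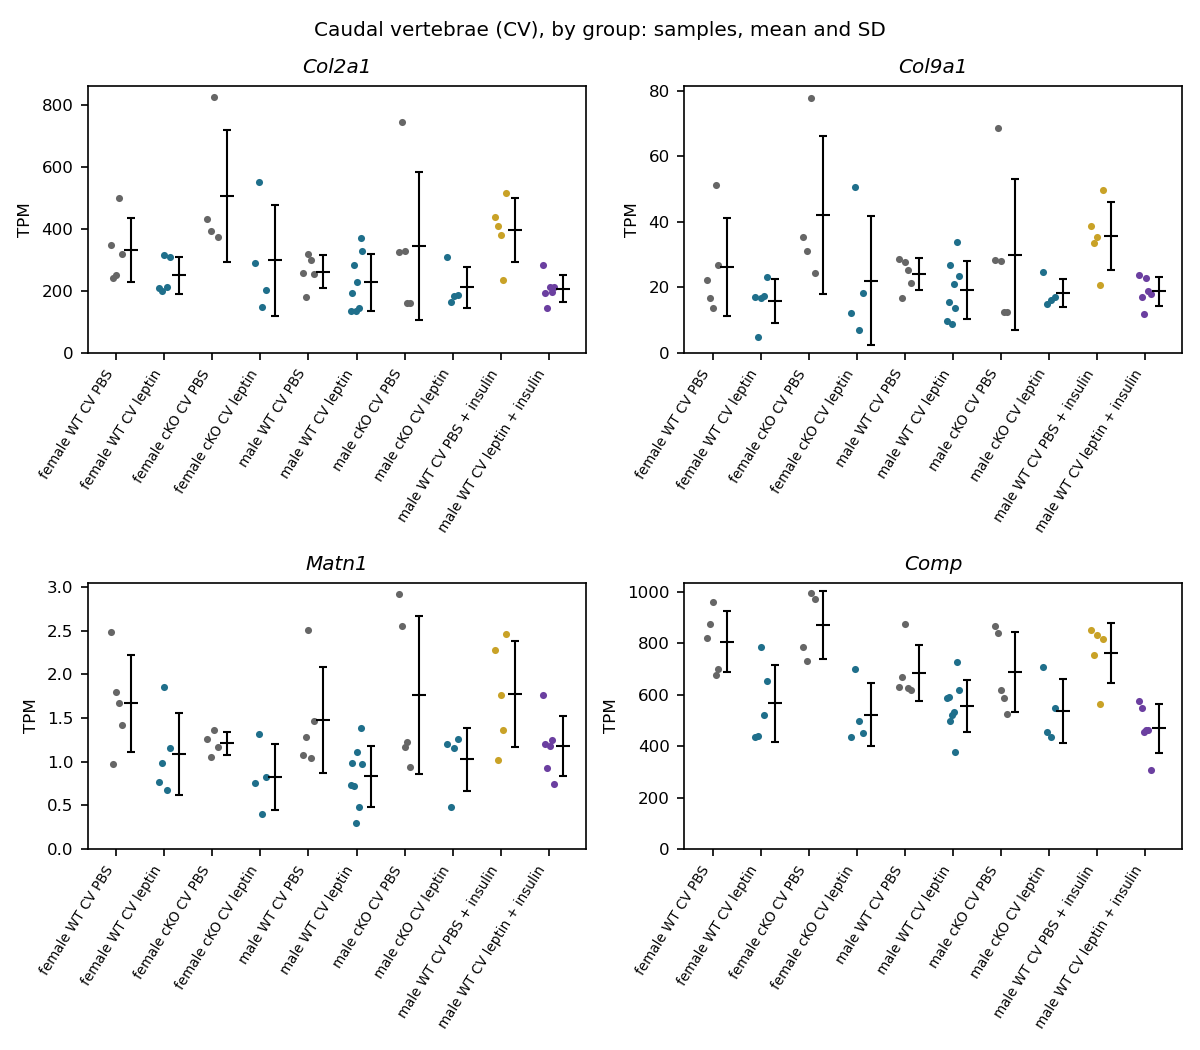
TPM of Col2a1, Col9a1, Matn1 and Comp in CV (vertical axes) by sex, genotype, infusion and insulin, with points for libraries and marks with bars for the mean and SD. Leptin and PBS libraries overlap for Col2a1, Col9a1 and Matn1 in each stratum, and the highest Col2a1 point is the 825 TPM of a female cKO mouse with PBS.

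Within single strata no member was called. In female WT mice edgeR called 0 of 10 (2 at an unadjusted p under 0.05) against 5.04% of all tested genes (3841 unadjusted), and DESeq2 called 1, Comp. In male WT mice the count was 0 (2 unadjusted, 0 by DESeq2) against 1.75% (2823 unadjusted). In female cKO mice it was 0 (2 unadjusted, 1 by DESeq2, again Comp) against 0.0269% (1723 unadjusted). In male cKO mice it was 0 (0 unadjusted, 0 by DESeq2) against 0.188% (1436 unadjusted).

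Comp, the pentameric matrix protein, had the smallest SE of the 10 members in the averaged fit. In female WT mice it was at 822, 874, 959, 676 and 702 TPM with PBS and at 437, 438, 785, 523 and 653 TPM with leptin. In female cKO mice it was at 785, 729, 994 and 970.4 TPM with PBS and at 435, 701, 498 and 453.03 TPM with leptin, which did not overlap. The edgeR log2 fold changes were -0.56 (adjusted p 0.0625) and -0.65 (adjusted p 0.251), and those of DESeq2 -0.55 (adjusted p 0.0126) and -0.65 (adjusted p 0.0048). In male WT mice it was at 631, 669, 875, 625 and 618 TPM with PBS and between 378 and 727 TPM with leptin (median 561 TPM). In male cKO mice it was at 867, 839, 619, 587 and 525 TPM with PBS and at 709, 455, 437 and 549.5 TPM with leptin. The male fold changes, -0.35 (adjusted p 0.142) and -0.30 (adjusted p 0.537), were not called and the groups overlapped.

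Chad, the most abundant member, was at 812, 737, 1431 and 1148 TPM with PBS and at 635, 712, 482 and 658 TPM with leptin in female cKO mice, without overlap. The 1431 TPM came from replicate 3, the library without T. In female WT mice its leptin libraries spread from 519 to 1004 TPM around the PBS libraries, which lay between 743 and 971 TPM. In male WT mice Chad was at 761, 1011, 1169, 738 and 780.0 TPM with PBS and between 581 and 1038 TPM (median 819 TPM) with leptin. In male cKO mice it was at 636 to 1067 TPM with PBS (median 988 TPM) and at 601 to 1356 TPM with leptin (median 816 TPM). The groups overlapped in both genotypes of males. The edgeR log2 fold changes of Chad were -0.63 (adjusted p 0.335) in female cKO, -0.31 (adjusted p 0.271) in female WT, -0.19 (adjusted p 0.468) in male WT and 0.02 (adjusted p 0.990) in male cKO mice. One female WT library with leptin, replicate 2, was the lowest of all CV libraries in Acan (60.0 TPM), Col10a1 (11.8 TPM), Col9a1 (4.74 TPM), Cnmd (101 TPM) and Sox9 (5.60 TPM).

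No difference in leptin response between genotypes or sexes was called for a member. For genotype by leptin, the members' differences lay between -0.33 for Col2a1 and 0.17 for Matn1, and edgeR called 0 of 10 (0 unadjusted, 0 by DESeq2) and 0% of all tested genes (941 at an unadjusted p under 0.05, 0 by DESeq2). For sex by leptin it called 0 of 10 (1 unadjusted, Chad with a difference of 0.38, and 0 by DESeq2) against 0.00672% (1079 unadjusted). There the members lay between -0.21 for Matn1 and 0.57 for Col10a1. Without the libraries that lacked T, all cKO with PBS, the genotype by leptin differences lay between -0.17 for Col2a1 and 0.36 for Col10a1. No member was called in that refit.

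**Figure D3:**
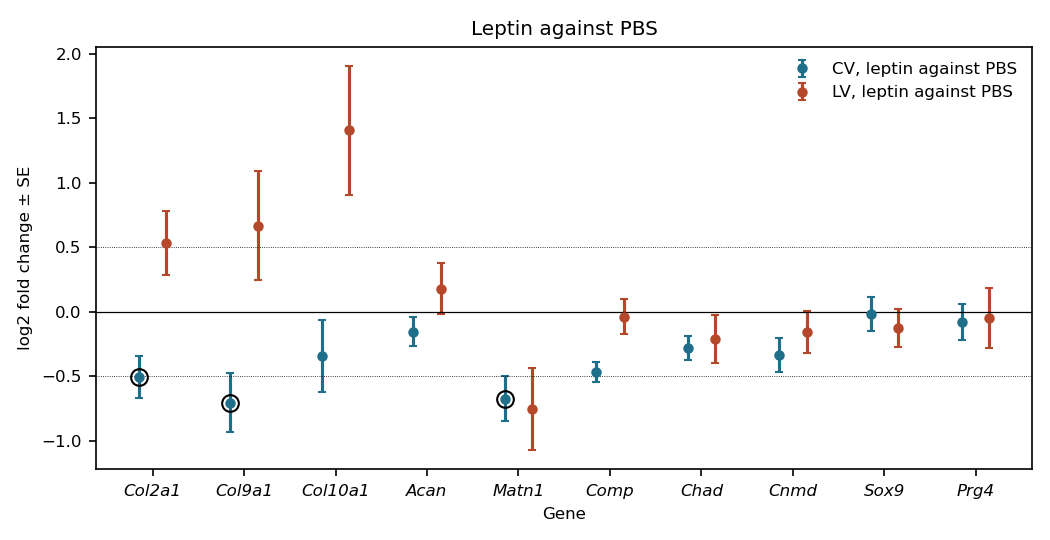
Log2 fold changes of the 10 cartilage genes with leptin (edgeR, bars are SE) in CV (average over the 4 strata) and in LV (average over both genotypes), with black rings around called values and dotted lines at the fold threshold of 0.5 in size. In CV Col9a1, Matn1 and Col2a1 carry rings at -0.70, -0.67 and -0.50, and in LV no value carries a ring.

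Some other cartilage genes were called, beside 5.39% of all tested genes. Of 22 further matrix genes, 2 were called lower with leptin in CV and none higher, with a median of -0.36. They were Col9a3 (-0.76, SE 0.18, adjusted p 0.0021), a partner chain of Col9a1 in type IX collagen, and Clec3a (-0.53, adjusted p 0.0239), a cartilage lectin. Of 25 regulators and enzymes, Gdf5 (-0.72, adjusted p 0.0359) and Ihh (-0.54, adjusted p 5.3e-04), the signal of prehypertrophic chondrocytes, were called lower. Mmp13 (0.58, adjusted p 0.0016), the collagenase of hypertrophic chondrocytes and osteoblasts, was called higher. The median of that list was -0.11. Without the libraries that lacked T, 720 of all tested genes were called, against 801 with them. Whether the calls of these other cartilage genes held there was not examined.

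Markers of other cells were counted in the same comparison, where 5.39% of all tested genes were called. Of 7 erythroid markers 5 were called higher, and their sum was 1836 to 11903 TPM with PBS (median 5061 TPM) and 3947 to 44517 TPM with leptin (median 12520 TPM). Of 7 adipocyte markers 5 were called lower, and their sum was 5935 to 12165 and 5032 to 9794 TPM. One of 8 muscle markers was called higher and 1 lower (sums 21742 to 75065 and 17199 to 59461 TPM), 2 of 8 tendon markers were called lower (777 to 8423 and 881 to 10490 TPM) and 1 of 7 synovium markers was called lower (539 to 1125 and 403 to 1087 TPM). Of 8 tested disc nucleus markers 1 was called lower. That list is not specific to the disc, as its sum had a median of 8940 TPM in iWAT and 5138 TPM in CV. None of the osteoblast, neutrophil and epidermis markers was called in either direction. The part of these cells in the lower levels of the cartilage genes was not tested.

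The third comparison asked the same of LV. No member was called there, and the hypertrophic collagen Col10a1 had the largest difference, with higher levels in some leptin mice. In WT females it was at 3.33, 2.01, 4.18, 2.43 and 3.88 TPM with PBS and at 31.3, 1.12, 2.71, 21.0 and 3.58 TPM with leptin. In cKO females it was at 6.96, 4.73, 27.3 and 9.44 TPM with PBS and at 20.04, 22.5, 13.9 and 46.4 TPM with leptin. The WT leptin group thus held a pair of high libraries, replicates 1 and 4, and 3 others within or below the PBS range.

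The same libraries were high in the other collagens. Col2a1 was at 57.1, 51.6, 81.9, 48.6 and 64.5 TPM with PBS and at 139.8, 48.5, 62.8, 219 and 66.5 TPM with leptin in WT females. In cKO females it was at 74.2, 66.7, 199.7 and 91.3 TPM with PBS and at 119, 160.5, 99.7 and 209.6 TPM with leptin. Col9a1 was at 2.21, 2.95, 5.00, 2.27 and 3.53 TPM with PBS and at 9.51, 1.13, 2.48, 13.6 and 3.32 TPM with leptin in WT females. In cKO females it was at 4.30, 4.37, 22.7 and 10.1 TPM with PBS and at 11.8, 10.5, 8.56 and 28.9 TPM with leptin. In cKO mice replicate 3 with PBS and replicate 4 with leptin were the highest of their groups in all 3 collagens.

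Averaged over both genotypes in LV, edgeR called 0 of 10 members (3 at an unadjusted p under 0.05, 0 by DESeq2) against 0.955% of all tested genes (3163 unadjusted). Col10a1 had a log2 fold change of 1.41 (SE 0.50, adjusted p 0.108), Col9a1 of 0.67 (adjusted p 0.402), Col2a1 of 0.54 (adjusted p 0.227) and Matn1 of -0.75 (adjusted p 0.180). The other 6 lay between -0.21 and 0.18. The members' median was -0.04 beside -0.0018 for all tested genes. In the single strata, edgeR called 0 members (2 unadjusted, 0 by DESeq2) and 0% of all tested genes (2183 unadjusted, 142 by DESeq2) in WT females. In cKO females it called 0 members (1 unadjusted, 0 by DESeq2) and 0% of all tested genes (1331 unadjusted, 72 by DESeq2). Genotype by leptin in LV also gave 0 members (0 unadjusted, 0 by DESeq2) and 0% of all tested genes (294 unadjusted, 1 by DESeq2). No other cartilage matrix gene, regulator or enzyme was called with leptin in LV.

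Whether the leptin response differed between the vertebral sites was tested as the response in CV minus that in LV over the 18 females. The main fit took the CV and LV libraries as separate, without pairing them by mouse. One member, Col2a1, was called, with -1.10 (SE 0.34, edgeR adjusted p 0.0424), where 3.68% of all tested genes were called. The call did not hold without the CV library of female cKO replicate 3 with PBS, the female library that lacked T (-0.95, adjusted p 0.0948), and with single mice left out it held in 6 of 18 fits (-1.32 to -0.88, adjusted p up to 0.109). It was lost without WT PBS replicates 1, 2, 4 or 5, WT leptin replicates 1 or 4, cKO PBS replicates 1, 2 or 4, or cKO leptin replicates 1, 3 or 4. The call was kept when both the CV and the LV library of cKO PBS replicate 3 were left out. With the mouse as a block, Col2a1 (-1.06, adjusted p 0.0451), Col10a1 (-1.85, adjusted p 0.0371) and Comp (-0.54, adjusted p 0.0359) were called. Without the block Col10a1 was at -2.03 (adjusted p 0.0843), Col9a1 at -1.57 (adjusted p 0.102) and Comp at -0.56 (adjusted p 0.0608). Among the other cartilage genes Col9a3 (-1.36) and Mmp13 (0.87) were called, and so were 5 of 7 erythroid markers, whose response was the higher one in CV, and 2 of 7 synovium markers, whose response was the lower one. Their part in the Col2a1 difference was not tested.

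**Figure D4:**
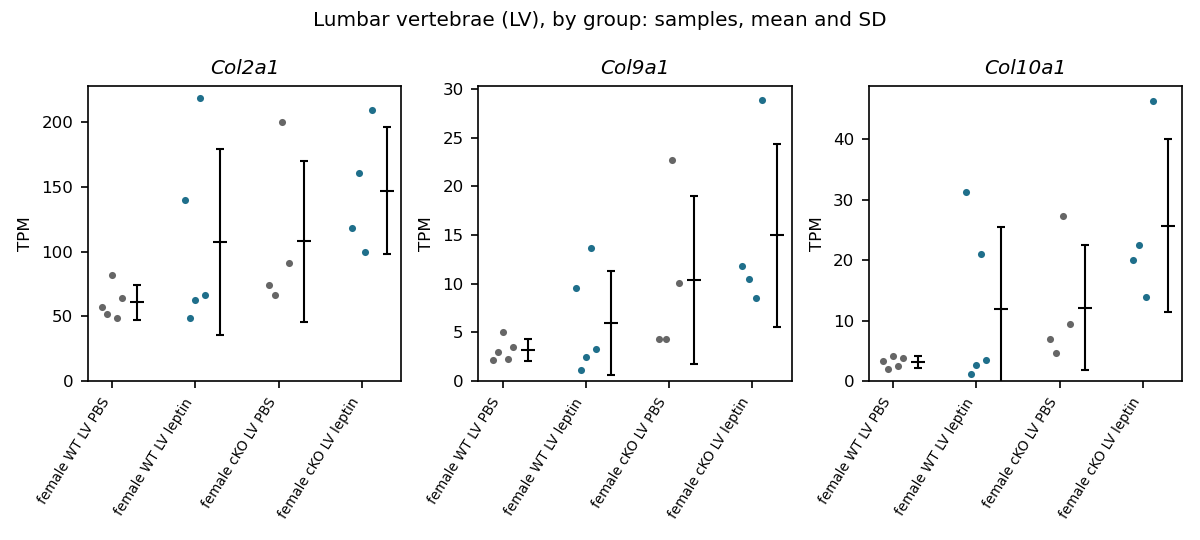
TPM of Col2a1, Col9a1 and Col10a1 in LV of females (vertical axes) by genotype and infusion, with points for libraries and marks with bars for the mean and SD, the lower end of the Col10a1 bar of WT with leptin being cut at 0. Col10a1, Col9a1 and Col2a1 show a pair of high libraries in WT with leptin, at 31.3 and 21.0 TPM for Col10a1.

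The loss of Pnpla2 in bone marrow adipocytes was compared next. In CV 0 of 10 members were called by edgeR (0 unadjusted, 0 by DESeq2) against 0.249% of all tested genes. The largest differences, cKO minus WT, were 0.39 for Col9a1 (SE 0.22, adjusted p 0.430), 0.30 for Col2a1 (SE 0.16, adjusted p 0.407) and -0.25 for Prg4 (adjusted p 0.416). The other 7 lay between -0.12 and 0.14. None of the other cartilage genes was called. Without the libraries that lacked T, all cKO with PBS, the differences were 0.27 for Col9a1, 0.22 for Col2a1 and -0.26 for Prg4. No member was called in that refit. In LV edgeR called 0 of 10 (0 by DESeq2) against 0.0202%, but 4 members had an unadjusted p under 0.05, as did 637 of all tested genes. Col10a1 differed by 1.58 (SE 0.49, adjusted p 0.836), Col9a1 by 1.58 (SE 0.42, adjusted p 0.5684), Col2a1 by 0.69 (SE 0.25, adjusted p 0.977) and Cnmd by 0.40 (SE 0.16, adjusted p 0.977). The other 6 lay between 0.05 and 0.26. Mouse numbers in the 5000s occurred only in cKO mice, and in LV they were PBS replicate 3 and leptin replicate 4, the highest of their groups in the 3 collagens. With the number series as a term, Col10a1 differed by 0.99 (adjusted p 0.449), Col9a1 by 1.03 (adjusted p 0.388), Col2a1 by 0.44 (adjusted p 0.472) and Cnmd by 0.53 (adjusted p 0.240). With PBS, the 4 cKO libraries of Col10a1 (4.73 to 27.3 TPM) all lay above the 5 WT libraries (2.01 to 4.18 TPM). The share of all tested genes that separated in this way was not counted. With leptin, Col10a1 in cKO (13.9 to 46.4 TPM) and WT (1.12 to 31.3 TPM) overlapped.

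Males and females were compared in CV over both genotypes and infusions. The largest differences with a low adjusted p were those of Chad, 0.37 higher in males (SE 0.092, edgeR adjusted p 8.2e-04), and Cnmd, 0.39 higher (SE 0.13, adjusted p 0.0119), both under the fold threshold. With the other members between -0.15 and 0.31, edgeR called 0 of 10 (2 unadjusted, 0 by DESeq2), where 13.2% of all tested genes were called (9230 unadjusted). Other cartilage genes did differ. Of 22 further matrix genes, Snorc (0.63), Matn3 (0.60) and Clec3a (0.53) were called higher in males and the type XI collagen chains Col11a2 (-1.31) and Col11a1 (-1.10) lower. Of 25 regulators and enzymes, Mmp3 (1.22) and Gdf5 (0.74) were called higher and 9 lower, led by Ibsp (-1.41), Slc26a2 (-0.96), Xylt1 (-0.91) and Runx2 (-0.81). In the same comparison 6 of 8 osteoblast markers were called lower in males and 7 of 8 muscle markers higher, and their part in these differences was not tested.

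Insulin was given to male WT mice only and measured in CV. The insulin comparisons share libraries with one another and with the leptin comparison of male WT mice. With PBS, Chad was at 761, 1011, 1169, 738 and 780.0 TPM without insulin and at 1167, 1189.6, 1221, 1086 and 1331 TPM with it. Cnmd was at 245, 282, 325, 328 and 353 TPM without and at 458, 417, 421, 402 and 449 TPM with insulin. The groups did not overlap for Cnmd and overlapped for Chad, and neither was called, at 0.33 (unadjusted p 0.0159) for Chad and 0.38 (unadjusted p 0.0255) for Cnmd. The other 8 members lay between -0.32 and 0.55, with Col10a1 the highest. In all, edgeR called 0 of 10 members for insulin with PBS (2 unadjusted, 0 by DESeq2) and 0% of all tested genes (976 unadjusted, 3 by DESeq2). For insulin with leptin it called 0 of 10 (0 unadjusted, 0 by DESeq2) against 0.363%, and the members lay between -0.35 for Prg4 and 0.51 for Matn1. There Ucma, a growth plate matrix gene, was called 0.57 higher among the other matrix genes. Without the mice numbered in the 400s, 7 of all tested genes were called against 54 with them. Whether the call of Ucma held there was not examined. For insulin by leptin the differences lay between -0.62 for Col2a1 and 0.34 for Matn1, and it called 0 of 10 (0 unadjusted, 0 by DESeq2) and 0% of all tested genes (1385 unadjusted, 13 by DESeq2).

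Among the insulin-treated mice, leptin against PBS called 1 of 10 members, against 0.558% of all tested genes. Comp was at 853, 756, 831, 565 and 815 TPM with PBS and insulin and between 309 and 575 TPM (median 463 TPM) with leptin and insulin. One PBS library lay within the leptin range. Comp fell by 0.65 on the log2 scale (SE 0.15, edgeR adjusted p 0.031). The call was lost, with an adjusted p of up to 0.0900, without PBS and insulin replicate 1, 2, 3 or 5 or leptin and insulin replicate 5 or 6. Mouse numbers were in the 300s in all 5 PBS libraries but in the 400s in leptin replicates 4, 5 and 6, where Comp was at 463, 462 and 309 TPM, against 575, 549.7 and 453.3 TPM in replicates 1, 2 and 3. Without the mice of the 400s, a choice made after seeing the data, Comp was at -0.54 (adjusted p 0.390) and 0 of 10 members were called, beside 3 of all tested genes against 83 with them.

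Col2a1 was at 439, 409, 379.7, 233 and 514 TPM with PBS and insulin and between 145 and 282 TPM (median 203 TPM) with leptin and insulin. The fitted difference was -0.88 on the log2 scale (edgeR adjusted p 0.0782, DESeq2 adjusted p 0.0189). Col9a1, at 38.6, 33.3, 35.2, 20.8 and 49.6 TPM and between 11.8 and 23.8 TPM (median 18.3 TPM), had -0.90 (edgeR adjusted p 0.114, DESeq2 adjusted p 0.0469). In both collagens PBS replicate 4 alone lay within the leptin range. Chad did not overlap, at 1086 to 1331 TPM with PBS and 741 to 926 TPM with leptin, but at -0.49 its edgeR adjusted p was 0.0528. Matn1 (-0.53), Col10a1 (-0.48), Cnmd (-0.45), Sox9 (-0.07), Prg4 (-0.07) and Acan (-0.03) were not called. Beside 0.558% of all tested genes, Cilp2 (-0.94) and Col11a1 (-0.90) of the 22 further matrix genes were called lower. In the same comparison 4 of 7 erythroid markers were called higher (sums 1502 to 6171 and 6969 to 19128 TPM), and their part was not tested. Without the mice of the 400s 3 of all tested genes were called, against 83 with them. Which calls of these other genes held there was not examined.

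The 10 genes varied together across libraries to different degrees. Over the 51 CV libraries the 45 pairs had Pearson's r between 0.04 and 0.89 on log2(TPM + 1), with a median of 0.57. The closest were Col2a1 with Col9a1 (0.89), Col9a1 with Col10a1 (0.86), Col10a1 with Cnmd (0.84) and Acan with Sox9 (0.80), and the loosest Matn1 with Prg4 (0.04). Without the 2 libraries that lacked T the range was 0.03 to 0.87 over 49 libraries. In the 18 LV libraries r ran from 0.01 to 0.95, and again the collagens were closest, at 0.95 for Col2a1 with Col10a1 and 0.94 with Col9a1, while Acan with Sox9 reached 0.89. These libraries share groups, dissections and depth, so the values are a description.

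Against the mean of the other 9 members, Prg4 was the loosest in CV (r 0.31) and Col9a1 the closest (0.86), and in LV Matn1 was the loosest (0.39) and Sox9 the closest (0.88). Among all tested genes outside the list, those most like the members' mean in CV were Col9a2 (0.91), Hapln1 (0.88), Crispld1 (0.88), Col9a3 (0.88) and Chadl (0.87). In LV they were Col9a2 (0.95), Clec3a (0.93), Eps8l2 (0.93), Chadl (0.92) and Hhip (0.91). Col9a2, another type IX collagen chain, and Chadl, a relative of Chad, appeared at both sites.

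The CV and LV libraries of 1 mouse were set against each other for the 18 females, to see whether a mouse high at one site was high at the other. For Cnmd Pearson's r was 0.66 (permutation p 0.0033, adjusted p 0.033 over the 10 members, two-sided) and Spearman's rho 0.59 (adjusted permutation p 0.0702). Chad had r 0.61 (permutation p 0.00683, adjusted p 0.0342) and rho 0.58 (adjusted permutation p 0.0702). As levels, both relations became weaker in parts of the data. Without the 2 mice farthest from the LV median, r was 0.34 for Cnmd and 0.47 for Chad. Within number series, r was 0.58 for Cnmd and 0.50 for Chad in the 10 mice of the 100s, and -0.22 and 0.16 in the 6 of the 600s. Without the mouse whose CV library lacked T, they were 0.61 and 0.50 over 17 mice. For Col2a1 r was 0.03 (permutation p 0.916), and for the other 7 members it lay between 0.14 and 0.47 with no adjusted p under 0.05. As deviations from the group means, Cnmd had r 0.76 (adjusted permutation p 0.0022) and rho 0.79 (adjusted permutation p 0.0016), and Chad had r 0.70 (adjusted permutation p 0.0054) and rho 0.71 (adjusted permutation p 0.00625). Without the 2 farthest mice these r were 0.68 and 0.66. Within series they were 0.62 for Cnmd and 0.61 for Chad in the 100s, and -0.32 and 0.35 in the 600s. Comp as deviations had r 0.52 (adjusted permutation p 0.0647) and rho 0.68 (adjusted permutation p 0.00817), and no other member had an adjusted p under 0.05.

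**Figure D5:**
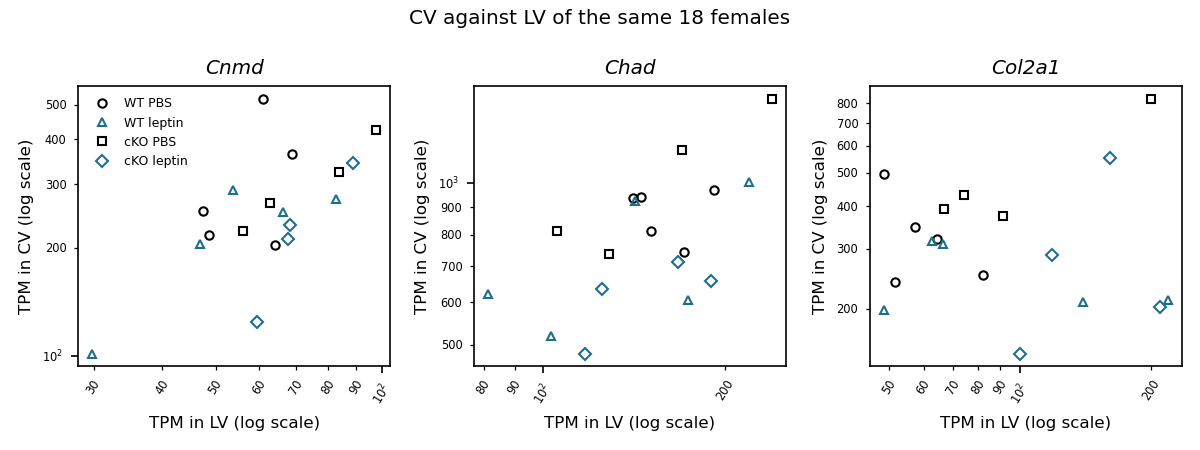
TPM of Cnmd, Chad and Col2a1 in CV (vertical axes) against LV (horizontal axes) of the same mouse, 1 point for each of the 18 females with symbols for genotype and infusion, both axes logarithmic. Points rise together for Cnmd (r 0.66) and Chad (r 0.61) and show no such order for Col2a1 (r 0.03).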

How the data were processed

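RNA was enriched with oligo dT, reverse-transcribed from random primers and sequenced by the authors as 100-base paired reads, which were cleaned with SOAPnuke, per the study's methods. HISAT and Bowtie2 are named by the submitters' processing notes together with the builds GRCm38.p6 and GRCm39, and the methods name GRCm38.p6. The tables hold no coordinates, and the counting program was not given in the sources used here. The authors deposited a table of estimated counts of reads per gene, of which 51 values in 6 features were not whole and were rounded. The authors also deposited a table of TPM values, which adjusts for gene length and library total.

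From the counts, edgeR 4.0.16 (R 4.3.3) fitted group means with TMM scaling and its quasi-likelihood test, with Benjamini-Hochberg adjustment over the 14873 genes whose TPM averaged 0.4 or more in the 79 libraries. A call needed an adjusted p under 0.05 and a log2 fold change of at least 0.5 in size, after the study's stated thresholds. TPM gave levels, ratios and correlations (Python 3.11.15, numpy 2.4.6, scipy 1.17.1), with 100000 resamples in permutation tests. The positions and promoter sequences are from RefSeq. The test was run on simulated counts first. Library totals of 16100377 to 29757254 counts leave Matn1 with the fewest counts, 7 to 64 in vertebrae. Libraries of a group are separate mice (79 libraries of 51 mice), and no 2 libraries of a group agreed within sampling noise.

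CV and LV with the same number in a group are of the same mouse, by the mouse numbers in the labels. The main fits did not use this pairing. Over 18 such pairs the correlation of deviations from group means ran from -0.01 to 0.41 (median 0.16). The members and the lists of other genes were chosen with earlier results of these data known. The rule named all 10 members, given one by one or by their range, at most 4 called genes each way of the lists of other matrix genes and of regulators and enzymes, by size of change, and the 5 genes most like the members' mean at each site. Marker lists are given as counts and sums. Alternatives were DESeq2 1.42.0, limma 3.58.1 on log2(TPM + 1) and log2(TPM + 0.1), size factors by RLE or library totals, other filters, replicate, mouse or number series as a term, a fit of all groups, each library left out and, added after seeing the data, the CV libraries with T under 1 TPM or the mice numbered in the 400s left out. Leaving out a library from a group assumes that the rest varies like the other groups.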

Additional observations from a re-analysis of the deposited data

Results flagged for a closer look

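Of 140 groups of 4 to 10 vertebral libraries examined gene by gene, 13 held a library far from the others by Dixon's criterion, which chance reaches in about 1 in 20 groups. In CV of cKO mice with PBS, Col2a1 was at 824.79 TPM in female replicate 3 (the others 374.37 to 430.97 TPM) and at 743.58 TPM in male replicate 2 (161.26 to 327.15 TPM). The same female library had 256.08 TPM of Col10a1 (85.66 to 110.57 TPM) and lacked the disc marker T, and the same male library had 68.62 TPM of Col9a1 (12.24 to 28.15 TPM). Among male cKO mice with leptin, replicate 1 had 307.47 TPM of Col2a1 (164.43 to 185.28 TPM) and replicate 2 had 0.48 TPM of Matn1 (1.16 to 1.26 TPM). In male WT mice, Comp was at 875.07 TPM in replicate 3 with PBS (618.32 to 668.52 TPM), Sox9 at 8.81 TPM in replicate 1 with PBS (11.42 to 12.33 TPM) and Acan at 143.16 TPM in replicate 3 with PBS and insulin (160.72 to 165.88 TPM).

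In LV, Acan was at 45.48 TPM in WT leptin replicate 4 (the others 20.13 to 27.41 TPM) and Comp at 94.75 TPM in WT PBS replicate 3 (66.13 to 73.04 TPM). In LV of cKO mice with leptin, Col9a1 was at 28.88 TPM in replicate 4 (8.56 to 11.84 TPM) and Prg4 at 8.33 TPM in replicate 3 (10.7 to 11.15 TPM).

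The leptin response of Col2a1 in CV minus that in LV, -1.0982 on the log2 scale, passed the edgeR test of the difference itself, and the report gives the libraries on which that call rests.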

How the results depend on the processing

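Counts of called members kept their value or stayed within 1.5 times it under most alternatives, with 17 exceptions among those that leave out no single library. With leptin in CV, 3 members were called, 1 without the CV libraries with T under 1 TPM and 1 to 3 with single libraries left out. In female WT CV the count of 0 became 1 by DESeq2, 1 with the replicate block, 1 in the fit of all groups and 2 with the number series as a term (Acan and Cnmd), and 0 to 1 with libraries left out. In female cKO CV it became 1 by DESeq2 and 1 in the fit of all groups. For leptin with insulin, 1 became 3 by DESeq2 and 2 by limma with either pseudocount, 0 without the mice numbered in the 400s, and 0 to 3 with libraries left out. For the leptin response in CV minus that in LV, 1 became 2 by DESeq2, 3 with the replicate block of the mouse, and 0 without the TPM filter, by limma with either pseudocount or without the library with T under 1 TPM, and 0 to 3 with mice left out. For CV against LV averaged, 8 became 8 to 9 with mice left out and 10 by limma, and for WT with PBS 9 held with mice left out and became 10 by limma or total counts. The other counts stayed at 0 with any library left out. No fold change of a called member reversed. Aside from fits that leave out single libraries in turn, the calls lost were Matn1 with leptin in CV (-0.37 by limma on log2(TPM + 1)), Col2a1 (-0.42) and Col9a1 (-0.59) there without the libraries with T under 1 TPM, Comp in the insulin-treated mice without those of the 400s (-0.54), and the Col2a1 site difference.

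Replicate numbers of PBS and leptin groups belong to different mice, and their deviations correlated at -0.40 to 0.51, so the numbers do not pair them. Over all tested genes, DESeq2 called more than 1.5 times as many as edgeR in several comparisons. With leptin these were female cKO CV (219 against 4), male cKO CV (212 against 28) and male WT CV (465 against 260). The others were insulin with leptin (174 against 54), leptin with insulin (230 against 83), cKO in CV (62 against 37), cKO in LV (11 against 3) and sex by leptin in CV (2 against 1). Where edgeR called 0, DESeq2 called 142 in female WT LV and 72 in female cKO LV. It also called 13 for insulin by leptin, 3 for insulin with PBS and 1 for genotype by leptin in LV. Why the tools differ was not tested. Matn1 had the fewest counts, but its SE in the averaged leptin comparison of CV (0.17) was below those of Col9a1 (0.23) and Col10a1 (0.28). The groups of 4 or 5 mice in single strata leave wide errors for the collagens, whose spread was large.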
